A study of Mus musculus with 32 samples.

Results

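Microglia of SOD1G93A mice were sorted by surface LAG-3, an inhibitory immune checkpoint receptor, into a LAG-3-high and a LAG-3-low fraction, and the transcriptomes of these fractions were compared. The comparison takes the 5 LAG-3-high and the 5 LAG-3-low libraries as the labels give them, which are 10 of the 32 libraries of the series, and all genes of their table. All 10 libraries came from the lumbar spinal cord of mice carrying the SOD1G93A transgene (the Gur line on a B6 background, which expresses mutant human SOD1) at P140, that is, at 140 days of age, and both fractions fell inside a CD11b+/CD45int sorting gate before they were divided at LAG-3 staining thresholds. The labels and methods give these 10 libraries no other allele and no agent. Beside them stand 4 libraries of WT microglia from non-transgenic mice, whose age is not given in the sources used here. There are also 3 libraries of SOD1G93A/LAG-3+/+ microglia at P140 that were not divided by LAG-3. Mice with a germline disruption of Lag3 in every cell type gave 3 libraries of SOD1G93A/LAG-3-/- microglia at P120 and 3 at P140. Where no age is given, the LAG-3-/- libraries are those at P120. All these microglia were taken through the CD11b+/CD45int gate as well. By the study's sample list, replicates 1 to 3 of each fraction came from males and replicates 4 and 5 from females. The sources used here do not state how many animals made a library or whether libraries of the same number shared an animal, so p-values measure the spread between these libraries. Levels are counts scaled to library size (CPM) with TMM factors unless stated otherwise, and the values of a fraction are listed in the order of replicates 1 to 5.

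Microglia are the resident macrophages of the central nervous system. In neurodegeneration some of them adopt a disease-associated microglia (DAM) state, in which Trem2, Tyrobp and Apoe and a group of lysosomal, lipid-handling and phagocytic genes are raised while homeostatic genes such as P2ry12 and Tmem119 are lowered. LAG-3 is best known from exhausted and regulatory T cells. CD11b and intermediate CD45 are not carried by microglia alone, since granulocytes and monocytes also express CD11b, so the marker transcripts of these cells were read in every library beside those of microglia.

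Lag3 (ENSMUSG00000030124, GRCm39 chromosome 6, 124881320 to 124888765, minus strand), the gene of the sorted protein, was measured at 45.2, 35.3, 38.0, 42.8 and 56.8 CPM in the LAG-3-low libraries and at 158, 156, 167, 141 and 186 CPM in the LAG-3-high libraries. Every LAG-3-high library lay above every LAG-3-low library, with a log2 fold change of 1.89 (SE 0.14, adjusted p = 2.5e-06, edgeR's quasi-likelihood test), so the transcript follows the sort labels. Havcr2, which encodes the checkpoint receptor TIM-3, stood at 219, 207, 197, 213 and 233 CPM in LAG-3-low and 354, 276, 290.0, 244 and 314 CPM in LAG-3-high. The fractions did not overlap here either, but the log2 fold change of 0.47 (SE 0.10, adjusted p = 0.0064) is below the minimum of 1 used for a call, and it turned to -0.25 when libraries were scaled to the microglial genes named in the next paragraph.

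LAG-3-high libraries totalled 15423932 to 21407418 counts and LAG-3-low libraries 13542482 to 22850356 counts. The 9 measured genes of a list of microglial identity (among them Csf1r, C1qa, C1qb, C1qc, Mertk, Adgre1 and Lgmn) summed to between 2.79% and 4.03% of all counts in LAG-3-low libraries, and to between 4.29% and 4.46% in LAG-3-high libraries. Pairwise correlations of log2 CPM lay between 0.926 and 0.949 within LAG-3-low and between 0.966 and 0.970 within LAG-3-high. Following the study's methods, a call required an adjusted p under 0.1 together with a log2 fold change beyond 1 in either direction. The test took in 14651 genes, and 327 of them (2.23%) were called higher in LAG-3-high, whereas 1123 (7.67%) were called lower there. The direction of the bulk of genes depends on the scaling. The median log2 fold change of all genes was -0.05 with TMM, -0.35 with library totals alone, where 138 genes were called higher and 1967 lower, and -0.76 when libraries were scaled to these 9 microglial genes, where 59 were called higher and 4482 lower. With the 4 WT libraries of the same table added to the fit, 135 of 16508 genes tested (0.818%) were called higher and 441 (2.67%) lower, of which 93 and 376 were among the calls of the 10 libraries. Of the genes tested, 8.33% had every LAG-3-high library above every LAG-3-low library and 8.07% every one below.

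**Figure D1:**
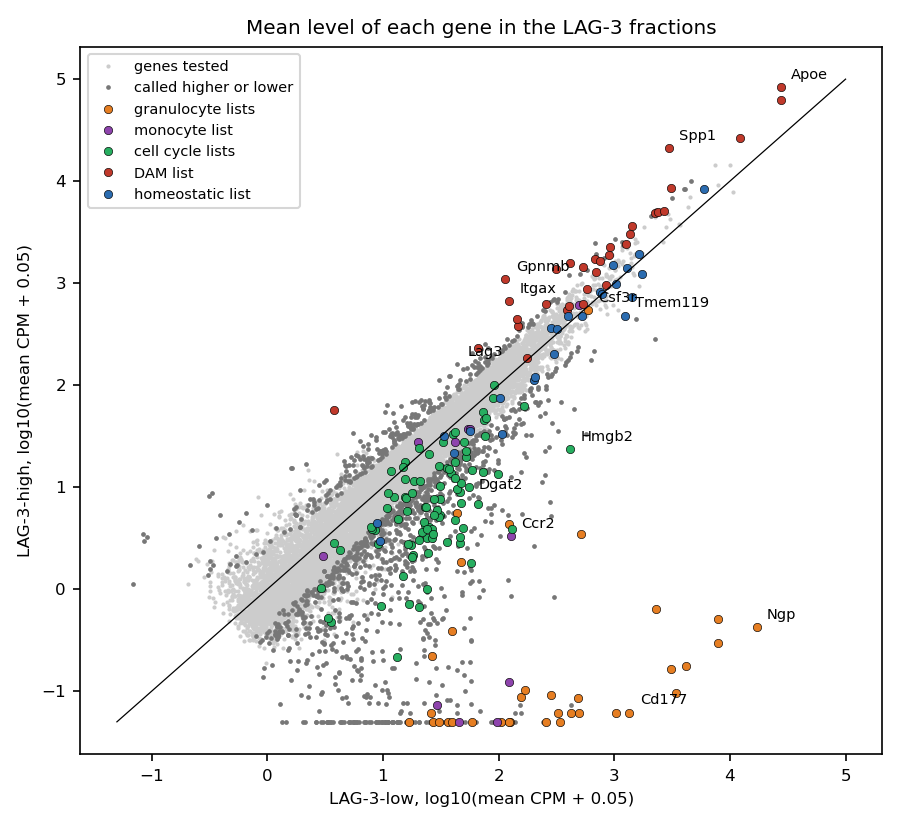
Mean level of each gene tested in the 5 LAG-3-low (x axis) and the 5 LAG-3-high libraries (y axis), both as log10 of mean CPM plus 0.05, with the line of equality. Most granulocyte-list genes (orange) lie at the lower right, with Ngp at a mean of 17041 CPM in LAG-3-low and 0.375 CPM in LAG-3-high, while the DAM list (red) lies above the line and the cell cycle lists (green) mostly below it.

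Neutrophil transcripts gave the largest differences between the fractions. The specific granule list, 13 genes that neutrophil precursors express while they make the granules of lactoferrin and lipocalin, summed to 2.87%, 4.88%, 5.90%, 4.98% and 2.12% of all counts in LAG-3-low libraries. The same list summed to 4.76, 10.8, 6.85, 2.98 and 6.35 CPM in LAG-3-high libraries. Olfm4, a granule protein of part of the neutrophils, stood at 4.31, 10.8, 2.98, 2.88 and 6.99 CPM in LAG-3-high, overlapping with LAG-3-low. Ngp, which encodes neutrophilic granule protein, stood at 11672, 20656, 24368, 19919 and 8591 CPM in LAG-3-low and 0.160, 0, 1.58, 0.0686 and 0.0672 CPM in LAG-3-high. Camp, the gene of the antimicrobial peptide cathelicidin, stood at 2262, 4064, 4676, 4352 and 1909 CPM in LAG-3-low and at 0 CPM in every LAG-3-high library but replicate 3, where it was 0.234 CPM. The trace of these granule transcripts in LAG-3-high thus came mainly from replicate 3, and within LAG-3-low replicate 3 was the highest and replicate 5 the lowest for both genes.

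All 13 genes of the specific granule list passed the filter on low counts, and 12 of them averaged under 1 CPM in LAG-3-high. Of the 24 genes of the mature neutrophil list 19 passed, of which 15 averaged under 1 CPM and 8 were at 0 CPM throughout LAG-3-high. Such genes entered the test through LAG-3-low alone and had to differ, so how many of them were called is no result about the lists. S100a8, a subunit of the calcium-binding protein calprotectin, stood at 5154, 8936, 11842, 8858 and 4269 CPM in LAG-3-low and at most 0.958 CPM in LAG-3-high. Mmp9, a matrix metalloproteinase stored in neutrophil granules, stood at 223, 398, 708, 222 and 153 CPM in LAG-3-low and at 0 CPM in every LAG-3-high library, which makes it at least 1824-fold lower when the floor is set at 3 counts per library. Ly6g, the surface antigen commonly used to identify mouse neutrophils, averaged 58.9 CPM in LAG-3-low and was likewise at 0 CPM throughout LAG-3-high. Csf3r, the G-CSF receptor, was the exception in the list, with 595 ± 60.1 CPM in LAG-3-low and 541 ± 66.3 CPM in LAG-3-high (SD, n = 5, adjusted p = 0.39). In CPM of library totals the mature neutrophil list summed to between 435 and 569 in LAG-3-high, and Csf3r averaged 487.

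Early granulocyte precursors were represented unevenly. The azurophil granule list, expressed by promyelocytes, summed to 158, 1107, 214, 689.6 and 137 CPM in LAG-3-low libraries, highest in replicates 2 and 4, and to at most 0.171 CPM in LAG-3-high. Of its 7 genes 3 passed the filter, through LAG-3-low alone, since all 3 averaged under 1 CPM in LAG-3-high. Prtn3, the serine protease proteinase 3, stood at 0.967, 35.4, 1.53, 43.9 and 2.61 CPM in LAG-3-low and 0 CPM in LAG-3-high. Replicates 2 and 4 of LAG-3-low thus held proteinase 3 transcripts at over 10 times the level of the other LAG-3-low libraries.

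Monocyte transcripts divided into those at 0 CPM in LAG-3-high and those present in both fractions. Ly6c2, which encodes the surface antigen of inflammatory monocytes, stood at 95.6, 116, 127, 92.2 and 52.6 CPM in LAG-3-low and 0 CPM in every LAG-3-high library, at least 517-fold lower. Ccr2, the receptor through which monocytes leave the marrow, stood at 264, 173, 33.1, 47.8 and 121 CPM in LAG-3-low and 5.43, 0.0640, 5.26, 3.84 and 1.61 CPM in LAG-3-high, without overlap (log2 fold change -5.28, adjusted p = 0.00045), though it was not called with the WT libraries in the fit. F13a1, Plac8 and Napsa were called lower as well, but 4 of the 11 tested monocyte genes, Ly6c2 among them, averaged under 1 CPM in LAG-3-high and had passed the filter through LAG-3-low alone. The 6 tested monocyte genes that were not called include Fn1 at 497 ± 243 CPM in the LAG-3-low and 617 ± 214 CPM in the LAG-3-high fraction (SD, n = 5), and the summed list overlapped between fractions, at 558 to 1824 CPM in LAG-3-low and 469.7 to 941 CPM in LAG-3-high.

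**Figure D2:**
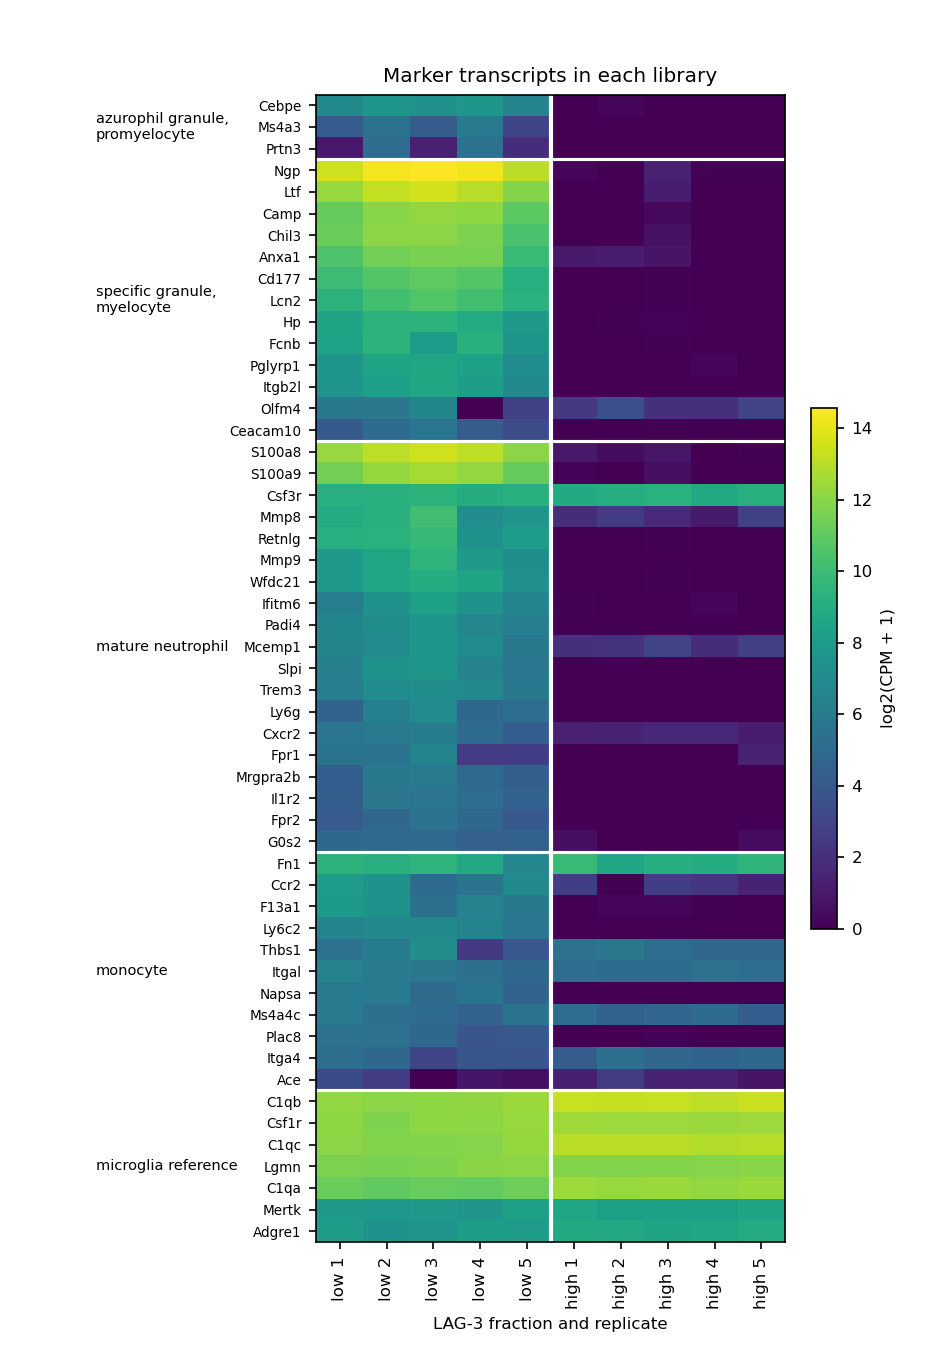
Levels, as log2 of CPM plus 1, of tested members of 5 marker lists (rows) in each of the 10 libraries (columns, LAG-3-low left and LAG-3-high right of the white line). Most granulocyte rows are filled in LAG-3-low and near 0 in all 5 LAG-3-high libraries, Csf3r being the main exception, and the microglial rows are filled in all 10.

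Other leukocytes left less trace. Of the 13 genes of the T and NK cell list 1 passed the filter, Nkg7, at 3.97, 23.3, 6.48, 29.8 and 2.57 CPM in LAG-3-low and 0 CPM in LAG-3-high, and its highest values were in the same replicates 2 and 4 as Prtn3. The T and NK cell list summed to 7.75 to 34.7 CPM in LAG-3-low and at most 1.45 CPM in LAG-3-high. No gene of the basophil, erythroid or neuron lists had enough counts to be tested. Among genes of border macrophages, Ms4a7 was called higher, at 46.2, 21.0, 19.9, 55.1 and 11.6 CPM in LAG-3-low and 121, 144, 69.1, 136 and 97.8 CPM in LAG-3-high, though not with the WT libraries in the fit, while Mrc1, Folr2, Pf4 and Stab1 were not called. Gfap, the intermediate filament of astrocytes, stood at 4.89, 1.82, 5.07, 12.4 and 2.83 CPM in LAG-3-low and 43.6, 55.1, 23.4, 26.4 and 20.0 CPM in LAG-3-high (log2 fold change 2.63, adjusted p = 0.0025), and the other 3 tested astrocyte genes were not called. All 4 had a positive log2 fold change, with a median of 1.16 (0.43 when scaled to the microglial list). The astrocyte list summed to between 55.3 and 83.7 CPM in the LAG-3-low libraries and between 111 and 134 CPM in the LAG-3-high libraries, without overlap. Gp9, a platelet glycoprotein, was called lower at a mean of 3.14 and 0.344 CPM, but not with the WT libraries in the fit. The B cell, dendritic cell, oligodendrocyte and endothelial lists had no called member.

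In bulk libraries, fewer cells of a type and less RNA per cell cannot be told apart. To place each called gene, its level in LAG-3-high was set beside its level in 3 libraries of SOD1G93A/LAG-3-/- microglia at P120, whose specific granule list summed to only 3.64 to 23.6 CPM. These libraries were chosen after the values were seen, lack Lag3 and came from younger mice. They stand in another table, so genes were placed by CPM of library totals. Where the text gives only TMM levels of the fractions beside a LAG-3-/- level, the scales differ and the gap is approximate. Levels of single genes given for them are means of the 3 libraries, which differed among themselves. Their DAM genes summed to 6.45% to 14.7% of all counts and their homeostatic genes to 2.36% to 4.44%. The lowest homeostatic sum lay inside the LAG-3-low range of 1.66% to 2.75%. Of the 1123 genes called lower, 447 were under 1 CPM in LAG-3-high, and 273 of these were under 1 CPM in the LAG-3-/- libraries also. These 273 genes made up 3.32% to 9.03% of all counts in the LAG-3-low libraries. Their sum of at most 0.00548% in LAG-3-high follows from picking genes under 1 CPM there and is no result. At the other end, 221 of the genes called lower were at 10 CPM or more in both LAG-3-high and the LAG-3-/- libraries. Of the 327 genes called higher, 227 were at 10 CPM or more in both.

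For these 221 genes the mean level in the LAG-3-/- libraries was nearer, on a log2 scale, to that of LAG-3-high in 143. It was nearer to that of LAG-3-low in 78. The 8 of the 221 with the smallest adjusted p, a rule added after the values were seen, were Adpgk, Alox5ap, Fam107b, Alox5, Ccnd3, Lta4h, Triobp and Megf9. Alox5, the 5-lipoxygenase, stood at 139.6, 179, 242, 164 and 110.2 CPM in LAG-3-low and 16.8, 23.6, 20.5, 21.1 and 26.4 CPM in LAG-3-high, and Lta4h, which makes leukotriene B4, at a mean of 448 and 58.9 CPM. Lta4h was at 57.5 CPM in the LAG-3-/- libraries, close to its 53.1 CPM of library totals in LAG-3-high. Alox5ap, the activating protein of 5-lipoxygenase, fell to 53.9 CPM from 254 CPM and was at 173 CPM in the LAG-3-/- libraries, against 281 CPM of library totals in LAG-3-low. Ltb4r1, the leukotriene B4 receptor, was at 0 CPM in all LAG-3-high libraries and at 73.0, 111, 156, 127 and 59.9 CPM in LAG-3-low. Of the 8 genes, all but Alox5ap were nearer to LAG-3-high than to LAG-3-low in the LAG-3-/- libraries, and the part of granulocytes in the falls of these genes was not tested.

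For 21 of the 221 genes the mean LAG-3-/- level was at or above that of LAG-3-low, so that LAG-3-high had the lowest mean of the 3 groups. Tmem119, a membrane protein particular to homeostatic microglia (ENSMUSG00000054675, chromosome 5, 113931781 to 113938577), stood at 905, 829, 1493, 1536 and 1395 CPM in LAG-3-low and 543, 444, 497, 412 and 508 CPM in LAG-3-high (log2 fold change -1.36, SE 0.17, adjusted p = 0.00016), and at 2206 CPM in the LAG-3-/- libraries. Slc2a5, a fructose transporter, stood at 92.2, 104, 76.8, 100.2 and 164 CPM in LAG-3-low and 39.3, 36.9, 20.7, 20.0 and 48.2 CPM in LAG-3-high, against 264 CPM. Neither gene overlapped between the fractions, and both were called with the WT libraries in the fit as well. Il16, Prkab1, Mier3 and Cdh23 shared the order of levels but were not called in that fit.

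Of 24 tested homeostatic genes, 3 were called lower (Tmem119, Slc2a5 and Crybb1), beside 7.67% of all genes, and none higher, with a median log2 fold change of -0.30 against -0.05 for all genes tested. P2ry12, the ADP receptor that guides microglial processes, stood at 925, 973, 1323, 1930.1 and 1974 CPM in LAG-3-low and 682, 688, 832, 669.5 and 815 CPM in LAG-3-high, with a log2 fold change of -0.95 (SE 0.20, adjusted p = 0.0062) just short of the minimum for a call. LAG-3-low replicates 1 and 2 were the lowest of their fraction for both Tmem119 and P2ry12. Selplg, a selectin ligand, was at -0.50 on the log2 fold change scale (adjusted p = 0.0065). Cx3cr1, the fractalkine receptor, was not called, at 1296 ± 250.1 CPM in LAG-3-low and 1413 ± 75.5 CPM in LAG-3-high (SD, n = 5, log2 fold change 0.12, adjusted p = 0.54), and its sign turned with library totals alone (-0.18) and with scaling to the microglial list (-0.57). With scaling to the microglial list, all 24 homeostatic genes had a negative log2 fold change and 12 were called lower, and with library totals alone 7 were.

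DAM genes were higher in LAG-3-high. Of 32 measured, 23 were called higher and none lower, against 2.23% of all genes called higher, with a median log2 fold change of 1.23. The list summed to 8.15% to 12.3% of all counts in LAG-3-low libraries and to 20.5% to 23.4% in LAG-3-high libraries, and to 15.3% to 18.4% in the 3 SOD1G93A/LAG-3+/+ libraries at P140 that were not divided by LAG-3 (another table, compared by library totals). With the WT libraries in the fit 15 of the 32 were called higher, and with library totals alone 14. Scaled to the microglial list, which itself was higher in LAG-3-high at a median of 0.52, 26 of 32 stayed positive, the median was 0.51 against -0.76 for all genes, and 7 were called higher (Atp6v0d2, Gpnmb, Spp1, Itgax, Cst7, Timp2 and Fabp5).

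Spp1, which encodes the secreted glycoprotein osteopontin (chromosome 5, 104582165 to 104589235), stood at 4463, 4096, 2753, 2428 and 1146 CPM in LAG-3-low and 22701, 21498, 22316, 20262 and 18472 CPM in LAG-3-high (log2 fold change 2.82, SE 0.29, adjusted p = 3.1e-05). Gpnmb, a transmembrane glycoprotein of late endosomes and lysosomes, stood at 191, 148, 88.3, 37.6 and 107 CPM in LAG-3-low and 1640.2, 1508, 1054, 513 and 765 CPM in LAG-3-high (log2 fold change 3.26). Itgax, the CD11c integrin chain, stood at 120.1, 131, 131, 93.2 and 137 CPM in LAG-3-low and 641, 695, 667, 660.3 and 669.6 CPM in LAG-3-high, the smallest adjusted p among the genes called higher (2.3e-08). Itgax was not called once the WT libraries entered the fit. None of the 3 genes overlapped between the fractions, and within LAG-3-high Gpnmb was lowest in replicate 4.

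The receptors and adaptors at the head of the DAM programme differed less. Trem2, the lipid-sensing receptor, stood at 842, 846, 919.6, 787 and 1079 CPM in LAG-3-low and 1995, 1934, 1928, 1803 and 1885 CPM in LAG-3-high (log2 fold change 1.09, adjusted p = 3.5e-06). Tyrobp, its signalling adaptor, averaged 1381 ± 189 and 3002 ± 353 CPM (SD, n = 5). Axl, a receptor for phosphatidylserine-bound ligands, averaged 917 ± 136 and 2259 ± 183 CPM. Clec7a, the beta-glucan receptor dectin-1, averaged 534 ± 86.5 and 1439.8 ± 56.1 CPM, and Cst7, a cathepsin inhibitor, 317 ± 90.7 and 1392 ± 199 CPM. All 5 were called higher without overlap. Of them Tyrobp and Axl were not called with the WT libraries in the fit. The DAM genes that were not called include Lgals3, Lilrb4a and Ch25h, with log2 fold changes of 0.22, 0.17 and 0.09.

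**Figure D3:**
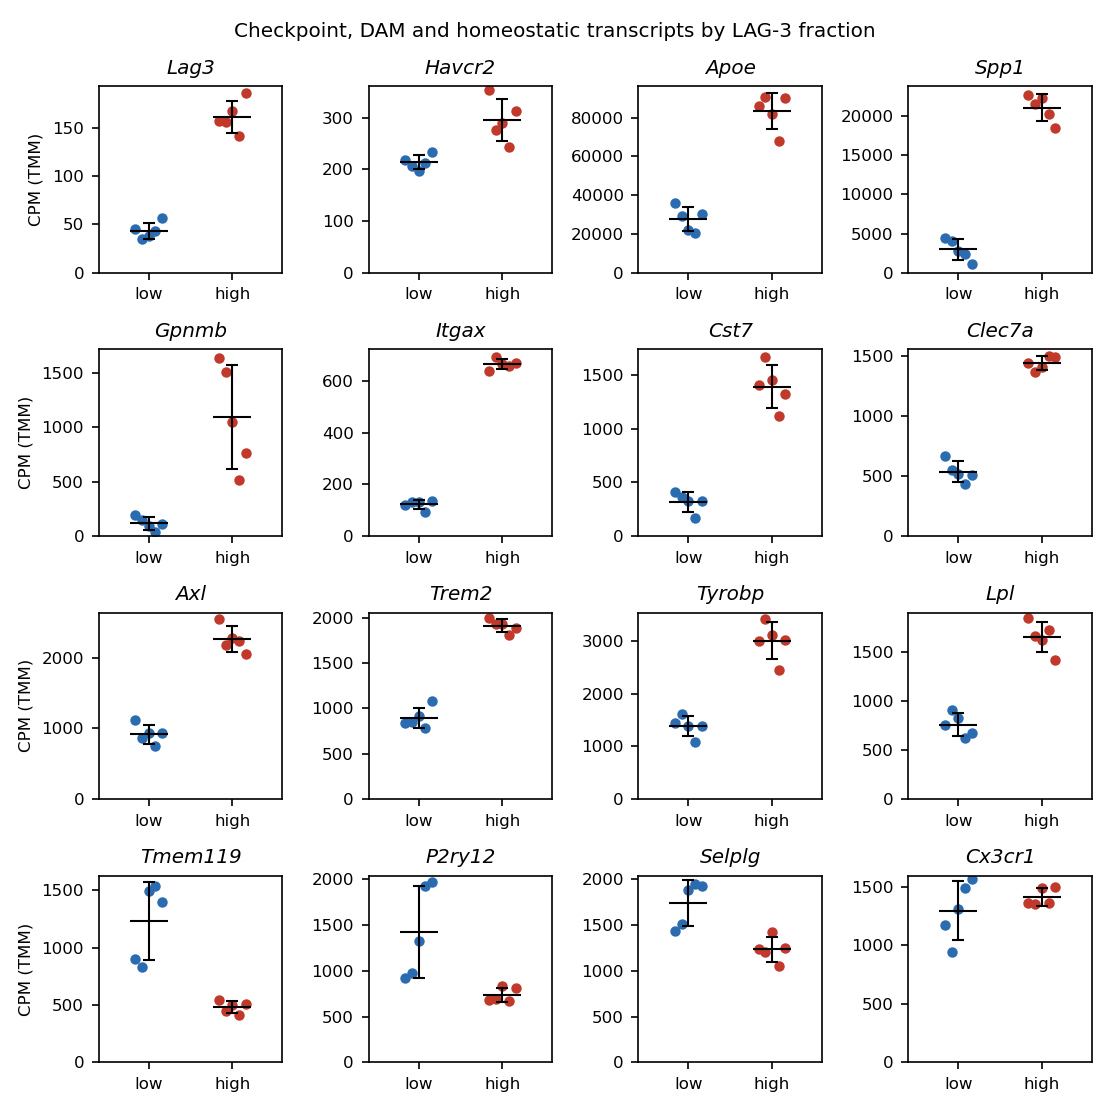
CPM after TMM scaling (y axis, linear, from 0) of Lag3, Havcr2, 10 DAM genes and 4 homeostatic genes in each LAG-3-low (blue) and LAG-3-high (red) library, with mean and SD bars. The 2 fractions do not overlap for any DAM gene shown, Tmem119 is lower in all 5 LAG-3-high libraries and Cx3cr1 overlaps.

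Part of the lysosomal genes were called higher. Of 58 tested lysosomal enzymes and membrane proteins, 14 were called higher and none lower, beside 2.23% and 7.67% of all genes. Their median log2 fold change was 0.72, and 41 of 58 had every LAG-3-high library above every LAG-3-low library, against 8.33% of all genes. With the WT libraries in the fit 19 were called higher, and with library totals alone 8. Scaled to the microglial list the median was 0.01, with 31 positive and 27 negative, and 1 member was called higher and 1 lower. Ctsd, the aspartic protease cathepsin D, averaged 27524 ± 5300.3 CPM in LAG-3-low and 62599.6 ± 6664 CPM in LAG-3-high (SD, n = 5). Ctsl, the cysteine protease cathepsin L, stood at 773, 712, 659, 533 and 752 CPM in LAG-3-low and 1848, 1762, 1706, 1684 and 1711 CPM in LAG-3-high. Npc2, which hands cholesterol to the lysosomal membrane, averaged 552 ± 81.1 and 1374 ± 74.1 CPM. Cd63, Ctsa, Glb1, Gaa, Gla, Hexa, Ctsb, Lamp1 and Gpnmb were among the other called members.

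Of the subunits of the V-ATPase, the proton pump of the lysosome, few were called, though most had a positive log2 fold change with TMM. Of 19 tested V-ATPase genes, 1 was called higher and none lower, beside 2.23% and 7.67% of all genes. The median log2 fold change was 0.45, and -0.26 when scaled to the microglial list. With TMM 17 of 19 were positive, and with scaling to the microglial list 3 were. With TMM 12 had every LAG-3-high library above every LAG-3-low library, against 8.33% of all genes. The called subunit, Atp6v0d2, known from osteoclasts, stood at 4.55, 4.47, 9.42, 0 and 0 CPM in LAG-3-low and 64.2, 60.4, 29.1, 45.2 and 85.1 CPM in LAG-3-high, the largest rise among genes at 10 CPM or more (log2 fold change 3.94, SE 0.97, adjusted p = 0.014). Its paralogue Atp6v0d1 was at 32.9 and 42.2 CPM (adjusted p = 0.22).

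The promoters of the called lysosomal genes are shown because many lysosomal genes carry an E-box, the letters CACGTG, which factors of the TFEB and MITF family can bind. Promoter windows from RefSeq (GRCm38.p6) were available for 11 of the 15 called lysosomal and V-ATPase genes, and 7 of the 11 held CACGTG in the 250 bases before the start. CACGTG reads the same on both strands. It was held by 16 of the 60 tested members with a window (26.7%), by 9.99% of the 9850 tested genes with a window and by 6.86% of all 27025 genes with one. The windows run 5′ to 3′ on the strand of the gene, with CACGTG in capitals. A single window is shown per gene, and Ctsd, Gla and Lamp1 held further matches.
Ctsa (chr2:164833743-164833772): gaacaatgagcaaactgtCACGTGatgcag
Ctsd (chr7:142387908-142387937): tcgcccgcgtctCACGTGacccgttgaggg
Ctsl (chr13:64370739-64370768): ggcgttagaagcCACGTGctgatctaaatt
Gaa (chr11:119267811-119267840): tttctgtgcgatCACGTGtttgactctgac
Gla (chrX:134601182-134601211): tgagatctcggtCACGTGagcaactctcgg
Glb1 (chr9:114401018-114401047): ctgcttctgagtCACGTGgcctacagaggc
Lamp1 (chr8:13159088-13159117): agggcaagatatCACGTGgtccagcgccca
The matches are a description of letters and not of binding. Of the factors themselves, Mitf was at 26.1 ± 6.77 and 45.0 ± 9.62 CPM (SD, n = 5, log2 fold change 0.79, adjusted p = 0.03), Tfeb had a log2 fold change of 0.53 (adjusted p = 0.12) and Tfe3 one of 0.08 (adjusted p = 0.7), and none was called.

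Lipid-handling genes were called in both directions. Of 28 tested, 12 were called higher and 2 lower, beside 2.23% and 7.67% of all genes, with a median log2 fold change of 0.88 (0.15 when scaled to the microglial list). The calls higher numbered 5 with the WT libraries in the fit, 7 with library totals alone and 4 with scaling to the microglial list. Apoe, the main lipid carrier of the brain, stood at 35902, 29264, 22234, 20319.6 and 30428 CPM in LAG-3-low and 86005, 90870.3, 82096, 67793 and 90116 CPM in LAG-3-high (log2 fold change 1.59, SE 0.15, adjusted p = 1.2e-05). Lpl, which releases fatty acids from lipoproteins, averaged 757 ± 113 and 1649 ± 153 CPM (SD, n = 5), and the fatty acid binding proteins Fabp3 and Fabp5 had log2 fold changes of 2.15 and 1.79. The cholesterol exporters Abca1 and Abcg1 were called higher at 1.03 and 1.06. Of these, Apoe, Lpl, Fabp5 and Abcg1 lost their call with the WT libraries in the fit.

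The 2 enzymes that make triglyceride from diglyceride were both lower. Dgat1 stood at 92.7, 182, 192, 124 and 94.7 CPM in LAG-3-low and 29.1, 24.1, 39.8, 28.1 and 43.7 CPM in LAG-3-high (log2 fold change -2.05, adjusted p = 0.0001). Dgat2 stood at 36.2, 58.5, 64.2, 79.9 and 36.1 CPM in LAG-3-low and 3.62, 5.96, 9.93, 8.37 and 11.4 CPM in LAG-3-high (log2 fold change -2.81, adjusted p = 9.7e-05), and its call was lost with the WT libraries in the fit. The LAG-3-/- libraries held Dgat1 at 46.0 CPM and Dgat2 at 2.91 CPM, nearer to LAG-3-high than to LAG-3-low in both cases, and the part of the granulocyte transcripts in these falls was not tested. Plin2, a lipid droplet coat protein, was at 152 and 180.2 CPM (adjusted p = 0.52). Of 20 tested genes of cholesterol synthesis 1 was called, Dhcr7, which was higher, beside 2.23% of all genes.

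Complement genes were also called in both directions. Of 17 tested, 6 were called higher and 4 lower, beside 2.23% and 7.67% of all genes (median log2 fold change 0.96, and 0.25 when scaled to the microglial list). With library totals alone and with scaling to the microglial list, 3 were called higher and 4 lower, and the C1q genes were not among those called in either. The C1q genes are themselves part of the microglial list. Scaling to it takes out part of their rise by construction and is no separate check on them. The 3 chains of C1q, the initiator of the classical pathway, were called higher, C1qa at 2475, 2046, 2296, 2144 and 2612 CPM in LAG-3-low and 5580.1, 5056, 5412, 4760.3 and 5304 CPM in LAG-3-high. C1qb and C1qc had log2 fold changes of 1.13 and 1.02, and each LAG-3-high library lay above each LAG-3-low library. Cfb, C2 and Itgax were the other members called higher, Cfb and C2 at means of 20.7 and 5.30 CPM in LAG-3-high and both with overlap between the fractions. C3, the central component, stood at 304, 499, 406, 358 and 166 CPM in LAG-3-low and 75.8, 70.1, 64.2, 53.1 and 78.5 CPM in LAG-3-high (log2 fold change -2.34, adjusted p = 3.1e-05), and at 32.9 CPM in the LAG-3-/- libraries. Cfp, which encodes properdin, a protein that neutrophils store, fell from 56.3 to 1.10 CPM. C5ar1, the receptor for C5a, fell from 375 to 156 CPM and was at 325 CPM in the LAG-3-/- libraries, while Cd55 was at most 12.1 CPM in any library. Of the 4 lower calls, those of C5ar1 and Cd55 were lost with the WT libraries in the fit.

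Of 24 tested phagocytic receptors and bridging molecules, 4 were called higher (Itgax, Clec7a, Axl and Trem2) and 1 lower (Cd300lf). Of all genes, 2.23% were called higher and 7.67% lower. Cd300lf stood at 91.6, 181, 199.7, 145 and 134 CPM in LAG-3-low and 59.6, 43.1, 65.7, 65.4 and 58.6 CPM in LAG-3-high. The median of the list was 0.52 and turned to -0.19 when scaled to the microglial list, where 1 was called higher and 3 lower. The call of Cd300lf was lost with the WT libraries in the fit. Itgam, the gene of the CD11b used in the sort, was at 849 ± 135 and 753 ± 55.8 CPM (SD, n = 5, adjusted p = 0.29).

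Among 27 tested antioxidant genes, 5 were called higher and 3 lower, beside 2.23% and 7.67% of all genes, with a median log2 fold change of 0.48 that turned to -0.24 when scaled to the microglial list. With that scaling none was called higher and 5 were called lower, and with library totals alone 1 was called higher and 5 lower. Fth1 and Ftl1, the chains of ferritin, which stores iron, stood at 3101 ± 369 and 3987 ± 403 CPM in LAG-3-low and 8544 ± 569.9 and 8443 ± 315 CPM in LAG-3-high (SD, n = 5). Both have near-identical pseudogene copies, so their levels are uncertain where reads could be divided. Ftl1 lost its call under both scalings and Fth1 when scaled to the microglial list. The others called higher were the metallothioneins Mt1 and Mt2 and Gpx3. None of these was called with the WT libraries in the fit or with library totals alone. With the WT libraries 2 members of the list were called higher and 2 lower. Gsr, glutathione reductase, stood at 353, 518, 387, 244 and 115 CPM in LAG-3-low and 37.2, 25.2, 48.6, 48.8 and 16.7 CPM in LAG-3-high (log2 fold change -3.19), and Prdx5 and Prdx6 were called lower at -1.14 and -1.17, Prdx6 not with the WT libraries in the fit. Sod1, the mouse gene, had a log2 fold change of 0.75 (adjusted p = 0.00036) and was not called.

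Of 16 tested MHC class I genes, 3 were called higher (B2m, H2-D1 and H2-Q6), beside 2.23% of all genes. The list median was 0.72, and 0.01 when scaled to the microglial list. No class I gene was called with that scaling or with library totals alone. B2m, the invariant light chain, stood at 2594, 1867, 2066, 2309.6 and 2316 CPM in LAG-3-low and 5848, 4441, 4699, 4534 and 4639 CPM in LAG-3-high. H2-Q6 lost its call in 7 of 10 fits that each left out 1 library, and reads of H2 genes may be divided between near-identical copies. None of the 10 tested MHC class II genes was called. Cd74, the invariant chain, ranged from 99.0 to 1677 CPM within LAG-3-low and from 844 to 1956 CPM within LAG-3-high, so the spread inside the fractions exceeded the difference between them. Of 28 interferon-stimulated genes 1 was called, Zbp1, which was higher, beside 2.23% of all genes. Its call, at an adjusted p of 0.099 (edgeR's quasi-likelihood test), did not hold in 7 of 10 fits without 1 library.

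Among 23 tested cytokine and chemokine genes, 6 were called higher and none lower, beside 2.23% and 7.67% of all genes. The median log2 fold change of 0.28 turned to -0.03 with library totals alone and -0.44 when scaled to the microglial list. The calls numbered 3 higher and 2 lower with library totals, and 1 higher and 5 lower with scaling to the microglial list. Apart from Spp1, the 6 genes called higher with TMM were Igf1, Csf1, Cxcl16, Mif and Cxcl14. Igf1, a growth factor, stood at 169, 225, 79.9, 91.6 and 157 CPM in LAG-3-low and 512, 487, 409, 348 and 474 CPM in LAG-3-high. Csf1, a ligand of the microglial receptor Csf1r, was at 259 ± 102 and 628 ± 112 CPM (SD, n = 5). Igf1, Csf1 and Cxcl14 were not called with the WT libraries in the fit. The inflammatory cytokines were not called: Tnf was at 5.93 and 5.34 CPM, Il1b at 27.4 and 24.0 CPM and Ccl4 at 425 and 360.4 CPM, with adjusted p values of 0.92, 0.8 and 0.78.

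Of 14 tested immune checkpoint genes, with Lag3 and Havcr2 included, Lag3 was called higher and Pilra lower, beside 2.23% and 7.67% of all genes. Pilra, an inhibitory receptor of myeloid cells, stood at 109, 117, 135, 103 and 76.8 CPM in LAG-3-low and 29.2, 16.3, 27.9, 25.9 and 34.1 CPM in LAG-3-high (log2 fold change -2.01, adjusted p = 2.6e-05) and was at 36.7 CPM in the LAG-3-/- libraries. Pdcd1, which encodes PD-1, averaged 112 ± 31.0 and 199 ± 33.1 CPM (SD, n = 5), and Cd274, which encodes its ligand PD-L1, 41.5 ± 12.8 and 82.3 ± 17.9 CPM. Their log2 fold changes of 0.83 and 0.99 were under the minimum for a call, at adjusted p values of 0.0066 and 0.0086.

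Transcription factors and immediate early genes went both ways. Of 21 tested microglial transcription factors, 3 were called higher, beside 2.23% of all genes, namely Hif1a, the hypoxia-inducible factor, Egr1 and Bhlhe40. The list median of 0.10 turned to -0.20 with library totals alone and -0.62 when scaled to the microglial list. None of the 21 was called higher and 3 were called lower with the latter scaling, so these 3 calls ended there, and 1 was called higher and 1 lower with library totals. Egr1 and Bhlhe40 also lost their call with the WT libraries in the fit. Egr1 stood at 72.7, 93.8, 111, 58.5 and 44.6 CPM in LAG-3-low and 183, 295, 175, 236 and 365 CPM in LAG-3-high. Egr2 was called higher too, but lost the call in 9 of 10 fits without 1 library. The immediate early genes Dusp1, Klf2 and Fosl2 were called lower, Dusp1, a phosphatase of MAP kinases, at 131, 188, 68.2, 29.6 and 35.5 CPM in LAG-3-low and a mean of 6.64 ± 2.59 CPM (SD, n = 5) in LAG-3-high, without overlap. Dusp1 was not called with the WT libraries in the fit. Fos, often raised by tissue dissociation, was at 24.2 and 3.15 CPM and was not called (adjusted p = 0.11).

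**Figure D4:**
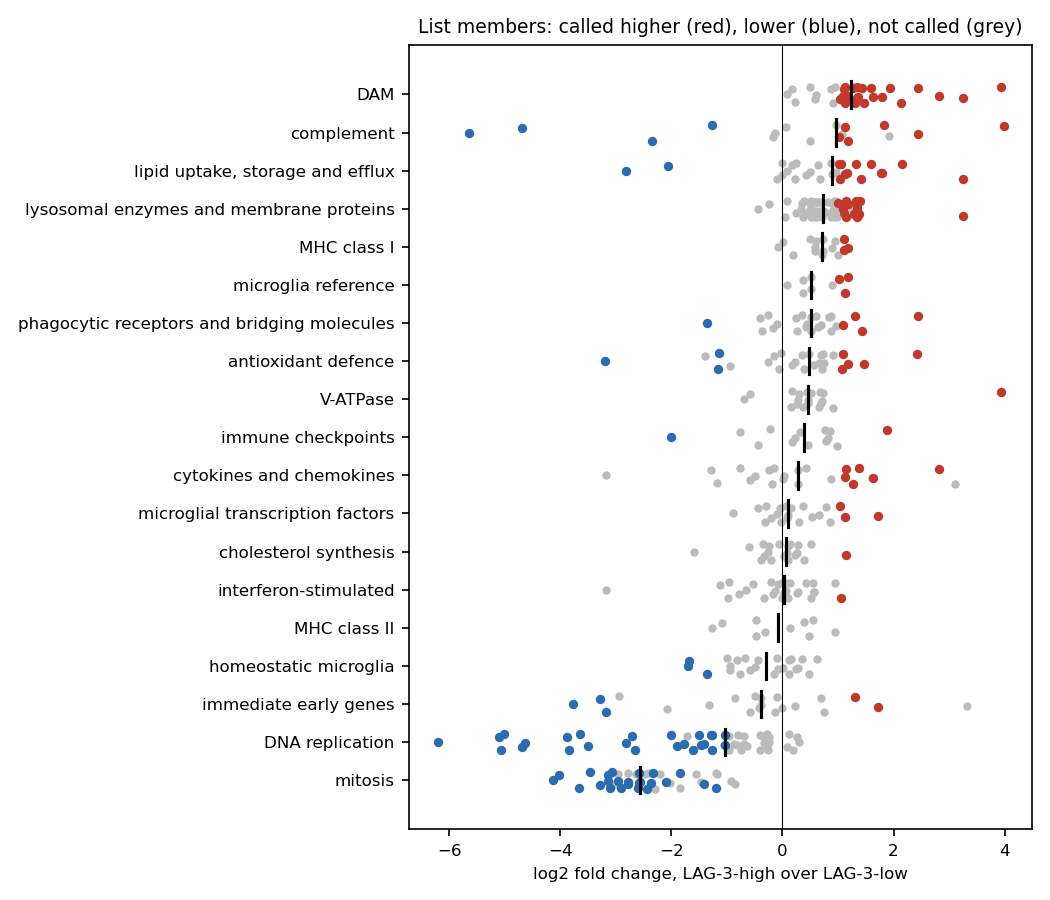
Log2 fold change of LAG-3-high over LAG-3-low (x axis) for every tested member of 19 lists (rows, ordered by median), with called higher members in red, called lower members in blue, others in grey and the list median as a black bar. The DAM list has the highest median (1.23) and the mitosis list the lowest (-2.56), and complement and lipid lists have members called in both directions.

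Proliferation genes were called lower in LAG-3-high. Of 50 tested DNA replication genes 25 were called lower and of 41 tested mitosis genes 24, against 7.67% of all genes, and none was called higher. The median log2 fold change was -1.04 for replication and -2.56 for mitosis. Hmgb2, a chromatin protein abundant in dividing cells, stood at 387, 628, 458, 498 and 96.4 CPM in LAG-3-low and 22.4, 23.6, 19.2, 28.7 and 23.4 CPM in LAG-3-high (log2 fold change -4.14, adjusted p = 1.9e-05). Aurkb, a kinase that corrects chromosome attachment, stood at 29.8, 51.5, 30.7, 38.9 and 5.27 CPM in LAG-3-low and 1.65, 7.43, 2.92, 10.7 and 3.83 CPM in LAG-3-high (log2 fold change -2.56, SE 0.60, adjusted p = 0.01). Mcm5, a subunit of the replicative helicase, stood at 45.2, 63.2, 77.2, 76.2 and 33.1 CPM in LAG-3-low and between 13.8 and 16.5 CPM in all 5 LAG-3-high libraries. Replicate 5 of LAG-3-low was the lowest of its fraction for each of these 3 genes.

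The granulocyte transcripts of the same libraries stand beside these calls. The mitosis list summed to 1908, 3316, 2137, 2564 and 430.4 CPM in LAG-3-low, against 158, 541, 121, 483.5 and 305 CPM in LAG-3-high libraries. Replicate 5 of LAG-3-low, which had the lowest specific granule sum of its fraction (2.12%), fell inside the LAG-3-high range for mitosis. The LAG-3-/- libraries at P120, with few granule transcripts, summed to 559 to 719.5 CPM, above the LAG-3-high range but below the other 4 LAG-3-low libraries. In the LAG-3-/- libraries at P140 the specific granule list summed to 13.5 to 3896 CPM and the mitosis list to 1231 to 2211 CPM. In the LAG-3+/+ libraries at P140 that were not divided by LAG-3, these sums were 12.1 to 2550 CPM and 506 to 1455 CPM. Of the 41 mitosis genes, 3 had every LAG-3-high library below every LAG-3-low library, a share near the 8.07% of all genes, and 13 of 50 replication genes did. With the WT libraries in the fit, 3 genes of each list were called lower, and Aurkb and Mcm5 were not among them. With no filter on low counts 20 replication and 7 mitosis genes were called lower, with library totals alone 30 and 31, and with scaling to the microglial list 40 and 39. Without LAG-3-low replicate 2 the mitosis calls numbered 12, and without replicate 5 they numbered 34. The part of granulocyte precursors in these falls was not tested.

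**Figure D5:**
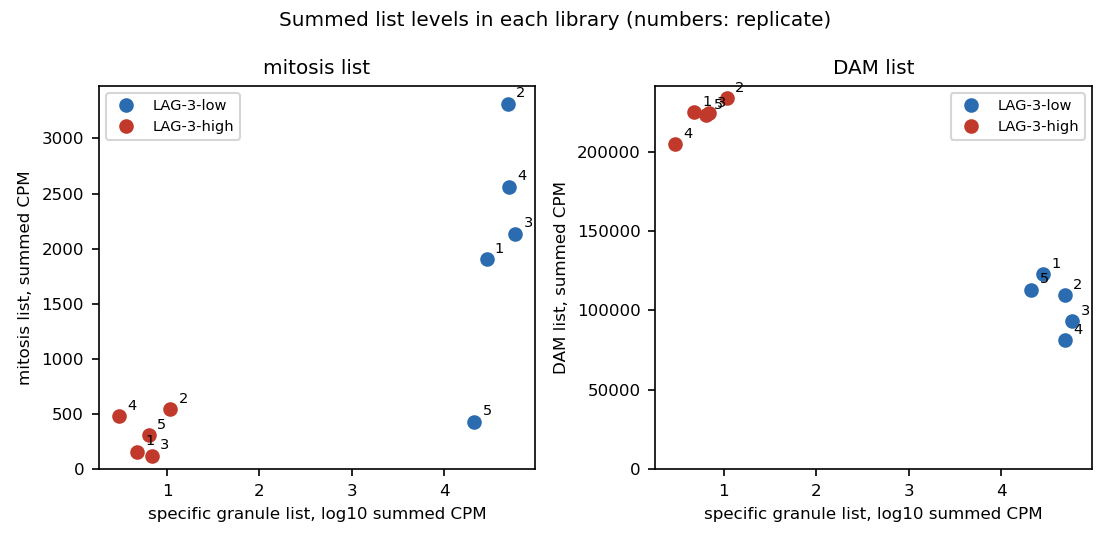
Summed CPM of library totals of the mitosis list (left) and the DAM list (right) on the y axis against log10 of the summed CPM of the specific granule list, one point per library, numbered by replicate, LAG-3-low in blue and LAG-3-high in red. LAG-3-low replicate 5 lies within the LAG-3-high range for mitosis (430.4 CPM) but far below it for the DAM list.

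Promoters of the called replication and mitosis genes are shown for the letters TTGGCGC and TTCGCGC, which E2F factors of the cell cycle can bind, searched on both strands. Of 42 called members with a window, 8 held one of them in the 250 bases before the start (19.0%), as did 14 of 74 tested members (18.9%), 6.56% of the tested genes with a window and 3.66% of all genes with one. Not all of the 8 are shown: the windows of E2f7, Ncapd2, Rpa3 and Uhrf1 are left out. In each window the capitals mark the match it was drawn around, and GCGCCAA and GCGCGAA are the same letters read on the other strand.
Mcm5 (chr8:75109334-75109363): gttagctgctaGCGCCAAgaactttcgcgc
Orc1 (chr4:108579416-108579445): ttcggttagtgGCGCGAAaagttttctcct
E2f8 (chr7:48881689-48881718): agaggcgcggaTTGGCGCgcggggccccgg
Mki67 (chr7:135716428-135716457): gcgggcgagccTTGGCGCggaaccgcctag
Mcm5 held both motifs, the second, TTCGCGC, standing in lower case at the end of its window, and the windows of called and of tested members held them at nearly the same share.

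Genes that rose beyond the reference microglial genes form a smaller group. The 59 genes called higher after scaling to the microglial list were all among the 327. The 10 of them with the smallest adjusted p in the TMM fit were named after their values were seen. These were Itgax, Pld3, Lag3, Cd22, Siglecf, Cst7, Spp1, Cpq, Pianp and F9. Pld3, a lysosomal nuclease, stood at 849.9, 788, 658, 544 and 584 CPM in LAG-3-low and 2629, 2391, 2467, 2408 and 2408 CPM in LAG-3-high (log2 fold change 1.85, SE 0.12, adjusted p = 6.7e-07). Cd22, a sialic acid receptor with inhibitory motifs, stood at 60.3, 45.7, 79.3, 50.7 and 56.2 CPM in LAG-3-low and 239, 215, 212, 176 and 193 CPM in LAG-3-high. Siglecf, another such receptor, stood at 54.5, 59.1, 82.9, 70.9 and 81.1 CPM in LAG-3-low and 200.2, 233, 284, 222 and 201 CPM in LAG-3-high. All 3 were without overlap and were called with the WT libraries in the fit too, with log2 fold changes after scaling to the microglial list of 1.12, 1.11 and 1.01.

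The largest rises at 10 CPM or more were, after Atp6v0d2, Fxyd6, Kif1a, Gpnmb, Nbl1, Spp1, Gfap, Mamdc2, Itgax, Myof, Gm19680 and Fabp3. Kif1a, a kinesin best known from neurons, was at 1.57 and 15.4 CPM and lost its call in 7 of 10 fits without 1 library. Myof, a membrane repair protein, stood at 20.3, 17.3, 5.11, 6.71 and 2.23 CPM in LAG-3-low and 54.7, 42.6, 56.4, 68.7 and 48.4 CPM in LAG-3-high. The 12 largest falls were Cd177, Camp, Lcn2, Mmp9, Ngp, Itgb2l, Plbd1, Lrg1, Ltf, S100a9, Retnlg and Chil3, of which all but Plbd1 and Lrg1 belong to the granule and neutrophil lists. Outside the granulocyte, monocyte, other leukocyte and cell cycle lists, the 12 largest falls included Plbd1, Lrg1, Slfn4, Ly6a2, Ltb4r1, Serpinb1a, Nfe2, Rab44, Rgs18, Ly75 and Gpr141. All 12 were at or below 0.117 CPM in every LAG-3-high library and at most 1.45 CPM in the LAG-3-/- libraries.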

How the data were processed

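RNA of FACS-sorted microglia was made into libraries by a SMART-seq mRNA HT LP protocol and sequenced as paired reads on a NovaSeq X Plus. The authors trimmed the reads (Trim Galore 0.6.7), quantified them (Salmon 1.9.0) against GRCm39 and summarised them to genes in R 4.2.1, per the submitters' processing notes and the study's methods. The annotation release is not given in the sources used here. The deposited tables hold estimated counts per gene, not normalized, and fractional values were rounded. Names and coordinates of genes came from a GENCODE annotation of GRCm39, in which 71 identifiers (0.0479% of counts) were absent.

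The 10 sorted libraries were fitted with edgeR 4.0.16 (limma 3.58.1, R 4.3.3) by the quasi-likelihood test with TMM scaling. Genes were kept by filterByExpr with a minimum count of 10 and a minimum total of 15, and p-values were adjusted by the Benjamini-Hochberg method over all 14651 genes tested. The common dispersion was 0.239. The main design took only these libraries, and a fit with the 4 WT libraries of the table was an alternative. Summed list levels and levels of other groups are CPM of library totals, since the table of the P120 and P140 groups was made separately, and the spinal cord table was not used here. A level at 0 CPM was bounded at 3 counts per library (a mean of 0.187 CPM in LAG-3-high). Intervals from counts would cover counting error only. Promoter windows of 30 bases came from RefSeq tables of GRCm38.p6.

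On simulated counts for this comparison, with 14651 genes and 100 changed at each size, edgeR recovered 58% of genes changed by 1.5 and 82% of those changed by 3 on the log2 scale, with 6.67% of calls false. DESeq2 1.42.0 recovered 71% and 89%, with 25.6% false. The simulation changed as many genes up as down and had no shift like that of the granulocyte transcripts. These shares therefore do not cover errors that come from the scaling. Other alternatives were RLE size factors, library totals, TMM without granulocyte and monocyte genes, scaling to the microglial list, other filters and thresholds, sex as a covariate, a replicate block and each library left out.

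The comparison and the gene lists (611 symbols, of which 3 were absent) were chosen with earlier results of these data known. Genes were named by rule: Lag3 and Havcr2, the canonical markers of the study, up to 5 called members of smallest adjusted p per list with members called against the rest, 2 members of highest level of lists with no call, and the 12 largest rises and falls. Rules added after the values were seen took genes placed against the LAG-3-/- libraries and genes called after scaling to the microglial list, and further genes named in the text were likewise chosen with values seen. A few genes entered the fits and counts but are not reported here by name.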

Additional observations from a re-analysis of the deposited data

Results flagged for a closer look

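For each named gene and list sum, the highest or lowest of the 5 libraries of a fraction was compared with the rest, and 15 of 311 groups held a library whose gap to its nearest neighbour exceeded 0.71 of the group's range. Chance marks about 5% of groups.

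Granule transcripts within LAG-3-high stood apart in replicate 3, with Ltf at 1.23 CPM against 0 CPM in the other 4 libraries and Ngp at 1.58 CPM against at most 0.160 CPM. In LAG-3-high, Cfp reached 2.88 CPM in 1 library against 0.409 to 1.03 CPM, Lta4h 73.6 CPM against 53.7 to 56.9 CPM, and C5ar1 211 CPM against 131 to 154 CPM. Of microglial and lysosomal genes in LAG-3-high, B2m reached 5848 CPM against 4441 to 4699 CPM and Npc2 1502 CPM against 1315 to 1362 CPM, while C1qc was lowest at 7588 CPM against 8390 to 8613 CPM. Gm61219 was at 17.8 CPM in 1 LAG-3-high library and 12.2 to 13.6 CPM in the others.

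Spc24, a kinetochore gene, stood apart in both fractions, at 6.42 CPM in LAG-3-low replicate 5 against 23.5 to 30.1 CPM, and at 7.75 CPM in LAG-3-high replicate 4 against 2.40 to 2.82 CPM. In LAG-3-low, the dendritic cell list summed to 181 CPM in replicate 5 against 3.18 to 45.0 CPM and the microglial transcription factor list to 4626 CPM in the same library against 3648 to 3877 CPM. Cd55 was at 12.1 CPM in 1 LAG-3-low library against 1.33 to 4.35 CPM, and Fosl2 at 22.996 CPM against 13.1 to 15.4 CPM.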

How the results depend on the processing

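Against 327 genes called higher and 1123 lower, library totals alone gave 138 and 1967, scaling to the microglial list 59 and 4482, the 14 libraries with WT 135 and 441, and dropping the minimum fold change 1699 and 1768. Leaving out 1 library gave 308 to 426 higher and 978 to 1195 lower. RLE factors, TMM without granulocyte genes, the filters, sex, an adjusted p under 0.05 and DESeq2 (366 and 1237) stayed within 1.5 times, as did library sizes from genes of the LAG-3-/- libraries (327 and 1126), a choice made after seeing the data. Scaled to the microglial list, uncalled genes turned sign: Cnp -0.20, Mbp -0.29, Havcr2 -0.25, Cd74 -0.10, Zbtb46 -0.11, Cx3cr1 -0.57 and Ebf1 -0.44. With library totals alone Cx3cr1 was -0.18 and Ebf1 -0.049. Leaving out 1 library moved Cd79b, also uncalled, between -0.45 (without LAG-3-low replicate 1) and 0.086 (without LAG-3-low replicate 5), with 0.025 without LAG-3-high replicate 1. Of 130 called named genes, 121 held their call in every fit that left out a library, and the others were Kif1a, Zbp1, Prkab1, Gp9, Bhlhe40, C1qc, Egr2, Fbxo30 and H2-Q6. With WT libraries 41 of the 130 called named genes lost their call, and scaled to the microglial list 29 did.

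A replicate block in the fit gave 379 higher and 954 lower calls, of which 298 and 899 were shared with the unblocked calls, and no named gene lost its call. Libraries of the same number deviated together weakly, with correlations of 0.0195, 0.129, 0.00193, 0.104 and 0.0373. Their mean was 0.058, against -0.015 between libraries of different numbers, and 4 of 10 libraries correlated best with their own number. These values do not settle whether libraries of the same number shared an animal, and the numbers were not taken as pairing.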

Other observations

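Transcripts of the mitochondrial genome summed to 5843 to 8467 CPM in LAG-3-low and to 9886 to 12452 CPM in LAG-3-high, without overlap. The specific granule list reached 0.316% to 3.88% of all counts in the 4 WT libraries of the same table, which overlaps the LAG-3-low range, and 12.1 to 2550 CPM in the SOD1G93A/LAG-3+/+ libraries at P140 that were not divided by LAG-3. Of the 227 genes called higher at 10 CPM or more in both LAG-3-high and the LAG-3-/- libraries at P120, the LAG-3-/- level was nearer to LAG-3-low in 141 and nearer to LAG-3-high in 86, and in 37 it was at or beyond that of LAG-3-high. When genes tested were ranked by length into 4 groups of 3660 or 3661, the shortest group had a median log2 fold change of -0.21 and the other 3 groups lay between -0.05 and 0.01.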
